A study of Homo sapiens with 4 samples.

Results

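The AP-1 factor genes of HL-60 cells were examined for open chromatin with and without all-trans retinoic acid (ATRA). HL-60 is a human promyelocytic leukemia line that matures toward granulocytes under ATRA. In the ATRA group the cells received 1 µM ATRA for 4 days, and in the control group they received the same volume of the ethanol in which it was dissolved, with medium and agent renewed once on the way. Each group had 2 independent replicates of this 1 line, and every library was an ATAC-seq library, in which the Tn5 transposase cuts and tags open DNA. The genes were FOS, FOSB, FOSL1, FOSL2, JUN, JUNB, JUND, BATF and ATF3, taken by name, which is 9 of 20163 protein-coding genes. A peak was assigned to a gene when it overlapped the gene body or the 50 kb on either side. Merging the peaks of the 4 lists gave 78046 regions in the genome, of which 92 lay at these genes, and no region was counted for more than 1 of them.

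AP-1 is a family of dimeric transcription factors of the basic leucine zipper (bZIP) class. The Fos proteins pair with a Jun protein, whereas Jun proteins can also pair with each other, and the dimers bind a short palindromic DNA element through which phorbol esters act. Several of the genes are immediate early genes, which are transcribed within minutes of a growth factor, stress or cytokine signal, and AP-1 is known for its part in myeloid maturation and inflammatory gene expression. BATF and ATF3 are bZIP proteins that dimerize with Jun proteins and can replace Fos in the complex.

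The 4 lists were not equally long. ATRA replicate 2 held 63541 peaks with a median width of 416 bp, and the other 3 lists held 42081 to 45903 peaks with medians of 291 to 328 bp. The files give no read numbers, so the depth behind a peak is unknown. Levels are therefore given as the score percentile, the rank of a peak's score within its own list, where 100 is the strongest peak. A rank does not remove the difference in list length. Over the genome, regions of all 4 lists had median percentiles of 68.9 and 79.2 in ATRA replicates 1 and 2. In control replicates 1 and 2 the medians were 68.2 and 70.5. The part of list length in the ranks was not tested. With 2 libraries against 2, the smallest two-sided p of an exact permutation test is 0.333, so no difference reported here can pass a threshold of 0.05, and a region or gene is described as higher or lower only where the values of the groups did not overlap.

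The sequences on which the account turns are shown first, on hg19 (GRCh37) and written 5′ to 3′, with capitals for a match to 1 of the searched motifs. The first 3 are the 250 bases upstream of the transcription start site (TSS) of the main transcript, each on the strand of its gene. JUNB (chr19:12902050-12902299, plus strand) is shown because its TSS was covered by a peak in the ATRA lists only. BATF (chr14:75988562-75988811, plus strand) is shown because the region just downstream of its TSS was found in the control lists only. JUND (chr19:18392433-18392682, minus strand) is shown because it alone in the family had an exact match to the cAMP response element (CRE, TGACGTCA) in these bases. In BATF the capitals mark a GATA match (TTATCT, the reverse complement of AGATAA) and a RUNX match (AACCACA). The bases printed for BATF end upstream of the control-only region and overlap no peak of any list. Both matches thus lie outside the called regions, and the central 200 bases of the control-only region held neither.
JUNB promoter: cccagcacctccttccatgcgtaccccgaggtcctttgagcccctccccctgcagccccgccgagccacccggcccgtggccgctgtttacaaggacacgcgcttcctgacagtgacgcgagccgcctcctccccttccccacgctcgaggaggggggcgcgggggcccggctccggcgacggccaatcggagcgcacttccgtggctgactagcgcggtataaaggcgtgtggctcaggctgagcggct
BATF promoter: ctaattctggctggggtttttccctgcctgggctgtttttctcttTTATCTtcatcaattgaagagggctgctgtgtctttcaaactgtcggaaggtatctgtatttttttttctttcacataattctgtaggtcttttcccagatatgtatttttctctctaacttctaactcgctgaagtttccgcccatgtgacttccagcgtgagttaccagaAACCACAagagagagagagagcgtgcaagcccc
JUND promoter: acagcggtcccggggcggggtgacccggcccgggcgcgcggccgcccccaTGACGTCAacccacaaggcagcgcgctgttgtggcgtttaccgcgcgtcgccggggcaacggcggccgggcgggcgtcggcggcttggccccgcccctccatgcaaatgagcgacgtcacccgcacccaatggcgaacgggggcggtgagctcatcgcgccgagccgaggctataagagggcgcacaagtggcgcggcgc
Next are a region upstream of FOS (chr14:75745138-75745288, plus strand), whole, with the CArG box that is the core of the serum response element in capitals, and the central 200 bases of 2 regions found in the control lists only, both on the plus strand. These are an intronic region of ATF3 (chr1:212740536-212740735), in which the AP-1 element TGACTCA is in capitals, and an intergenic region downstream of JUN (chr1:59239121-59239320), which had no match.
FOS upstream region: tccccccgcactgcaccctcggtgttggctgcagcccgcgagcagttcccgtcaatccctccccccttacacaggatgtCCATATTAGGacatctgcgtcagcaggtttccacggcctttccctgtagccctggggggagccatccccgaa
ATF3 intronic region: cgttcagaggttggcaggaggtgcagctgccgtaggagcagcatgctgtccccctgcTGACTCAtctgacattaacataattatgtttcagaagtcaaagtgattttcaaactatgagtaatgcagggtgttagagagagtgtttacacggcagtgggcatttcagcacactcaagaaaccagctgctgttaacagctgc
JUN downstream region: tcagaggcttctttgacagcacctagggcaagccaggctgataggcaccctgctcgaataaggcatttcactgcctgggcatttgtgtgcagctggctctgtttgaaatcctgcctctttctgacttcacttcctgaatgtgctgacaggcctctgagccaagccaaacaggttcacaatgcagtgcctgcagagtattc

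The genes were first compared by their number of peaks. ATRA replicate 1 had 66 peaks at the 9 genes, ATRA replicate 2 had 71, control replicate 1 had 63 and control replicate 2 had 55. Per 10000 peaks of the list these were 15.2 and 11.2 in the ATRA libraries and 15.0 and 12.0 in the controls. The group means were 13.2 ± 2.83 and 13.5 ± 2.11 (SD, n = 2 each), a difference of -0.302 that was smaller than the spread within either group (two-sided exact permutation p = 1). More peaks in both ATRA lists than in either control list were found at 3 of the 9 genes, FOSL1, JUNB and JUND, beside 22.9% of 19458 genes with a peak in any list. No AP-1 gene had fewer peaks in both ATRA lists, a pattern seen at 3.03% of genes. When every list was shortened to the best-scored peaks of the shortest one, JUNB alone kept more peaks, where 14.2% of genes had more, and ATF3 had fewer, where 11.5% of genes had fewer.

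**Figure D1:**
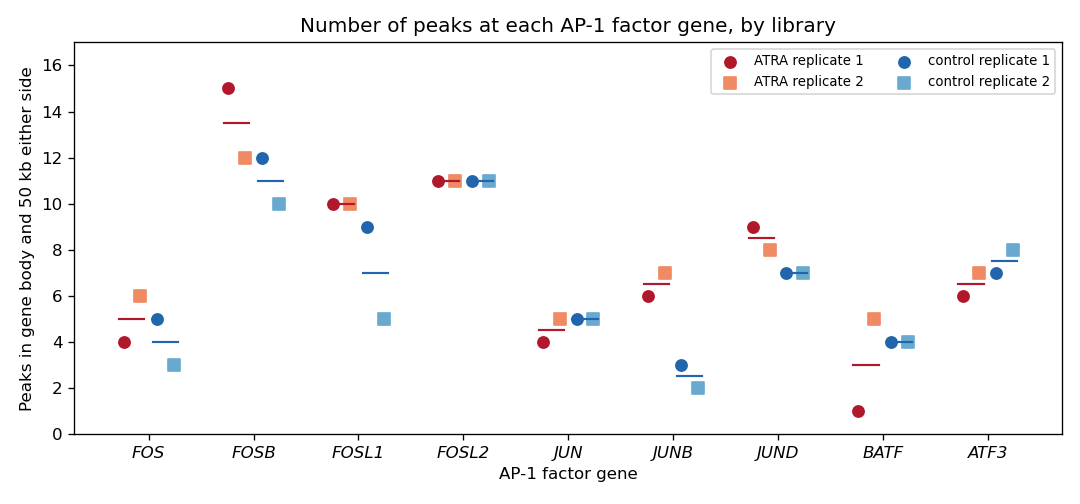
Number of peaks (y axis) in the gene body and 50 kb on either side of each AP-1 factor gene (x axis) in the 4 libraries, with short lines for the mean of each group. JUNB had 6 and 7 peaks in the ATRA libraries against 3 and 2 in the controls, while FOSL2 had 11 in every library.

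The second count used convincing peaks, those of a group that overlap between its replicates. At the AP-1 genes 15 of 52 convincing ATRA peaks (28.8%) had no counterpart among the convincing control peaks, beside 37.3% in the whole genome. Of 44 convincing control peaks, 7 (15.9%) had no counterpart on the ATRA side, beside 23.7%. Under the stricter demand that a region be in both lists of a group and in neither list of the other, 6 regions were ATRA-only (6.52%, genome 8.93%) and 4 were control-only (4.35%, genome 3.37%). Regions of all 4 lists were 38 of the 92 (41.3%), compared with 30.3% of all regions. A further 25 regions were in 1 list only (27.2%, genome 33.4%), and 12 of those were in ATRA replicate 2, 7 in ATRA replicate 1, 4 in control replicate 1 and 2 in control replicate 2.

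**Figure D2:**
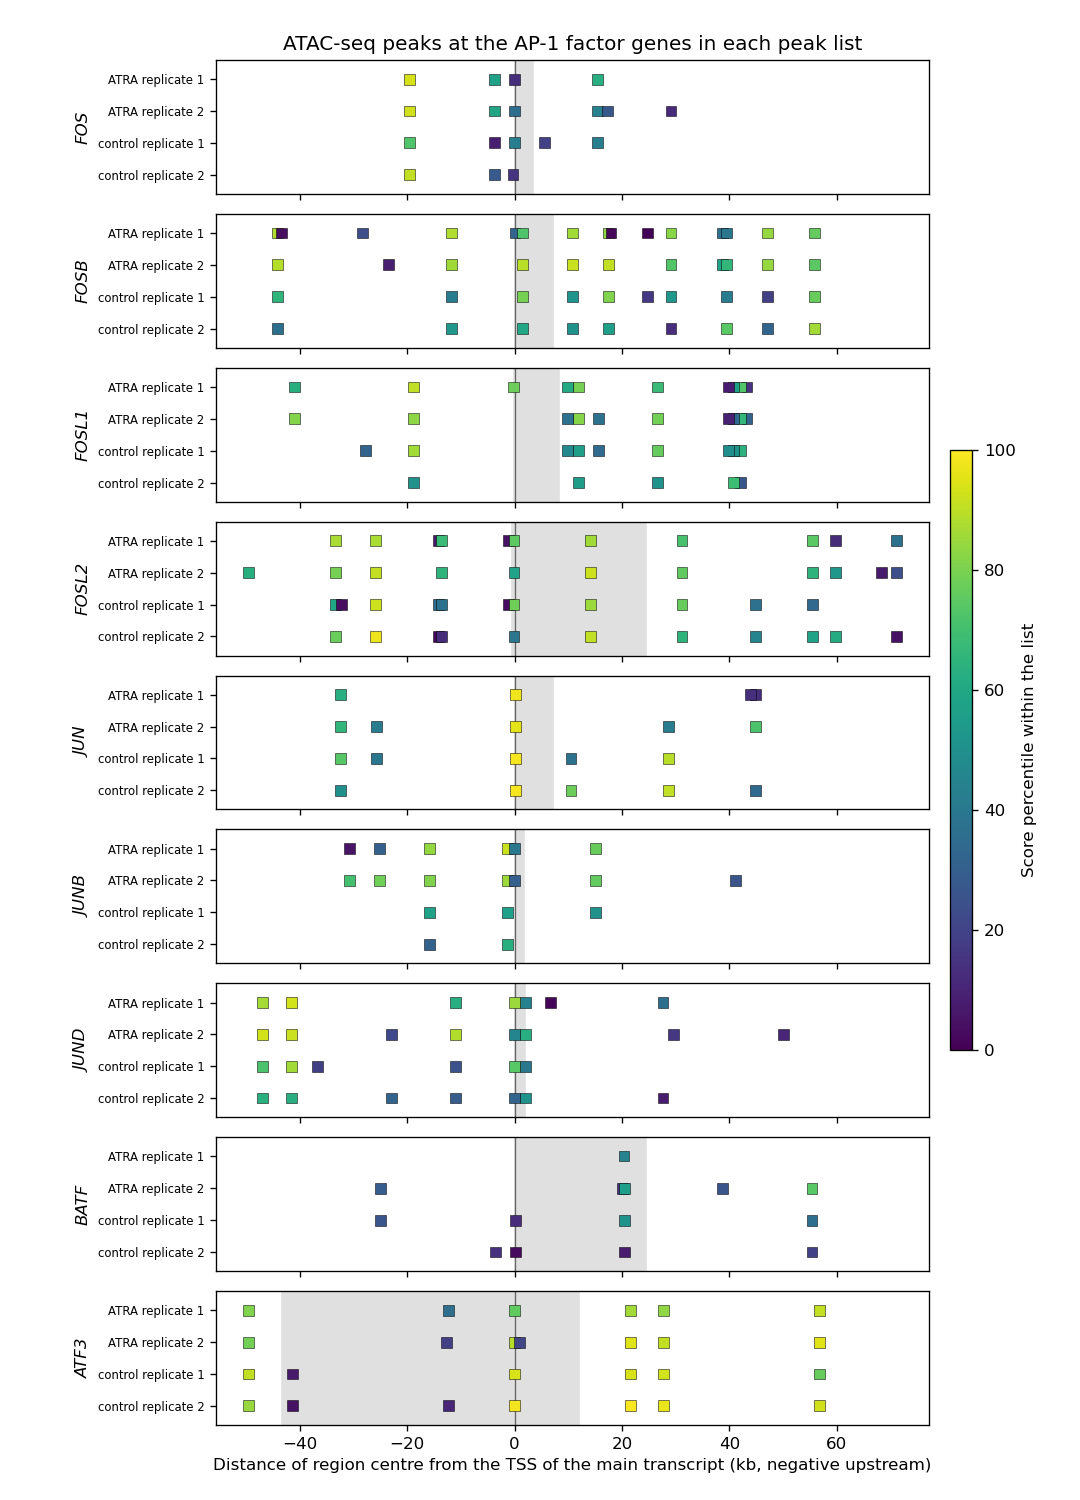
Regions with a peak at each AP-1 factor gene in each of the 4 libraries (rows), plotted by the distance of the region centre from the TSS in kb and coloured by score percentile within the list. Grey shading is the gene body and squares are not drawn to the width of the peaks. JUNB shows 3 regions present in both ATRA rows and absent from both control rows, and ATF3 keeps its strongest regions in every row.

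Among the Fos genes, FOS encodes the prototype immediate early partner of the Jun proteins. Its window held 4 and 6 peaks in the ATRA libraries and 5 and 3 in the controls, so the groups overlapped. The region over its TSS (chr14:75745311-75745813) was weak, at percentiles 13.2 and 35.2 in the ATRA lists and 41.8 in control replicate 1, and it was not called in control replicate 2. In that library the promoter window held instead the upstream region printed above (percentile 15.3), whose CArG box lies 314 to 305 bases upstream of the TSS. The strongest distal region, 19.6 kb upstream, was in all 4 lists at 93.8, 92.6, 72.4 and 91.0 (ATRA replicates 1 and 2, then control replicates 1 and 2, an order kept for all values in fours). Both ATRA values there lay above both control values, though 92.6 and 91.0, the nearest pair, were close.

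FOSB, a close relative of FOS with the same kind of induction, had the most regions of the family, 16, with 15 and 12 peaks in the ATRA libraries and 12 and 10 in the controls. Its best promoter peak was in all lists at 72.2, 89.1, 79.0 and 59.9, which did not separate the groups. That peak lay 1.4 kb downstream of the main TSS and counted as promoter through the TSS of another transcript. The region over the main TSS (chr19:45970864-45971785) was in ATRA replicate 1 only, at percentile 32.3 and 922 bp wide. Of the 9 FOSB regions in all 4 lists, 6 ranked higher in both ATRA lists and 1 lower. The largest difference of the family was here, at an intron of VASP 47.2 kb downstream. That region stood at percentiles 84.3 and 84.3 in the ATRA lists and 19.3 and 32.4 in the controls, and its width was 710 and 606 bp against 235 and 335 bp. The 1 ATRA-only region, 38.8 kb downstream (chr19:46009702-46010376), was at the promoter of VASP, an actin regulator, with percentiles of 37.9 and 58.0. It held an AP-1 element. Another region at the VASP promoter, 39.4 kb downstream (chr19:46010434-46010912), was in all 4 lists, at 39.7, 66.0, 41.4 and 74.4. The best-scored distal region, in a VASP exon 55.8 kb downstream, was the lower one, at 76.6, 74.6, 76.7 and 86.3.

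FOSL1 (FRA1), a Fos protein without the transactivation domain of FOS, had 10 peaks in each ATRA library and 9 and 5 in the controls, a mean difference of 3 that was 5 without control replicate 1 and 1 without control replicate 2. Its own promoter was covered in ATRA replicate 1 only, at percentile 77.6. The surrounding 50 kb are dense in genes, and 8 of its 12 regions were promoters of other genes. Of its 2 ATRA-only regions, 1 was intergenic, 41.0 kb upstream (chr11:65708537-65709143), with percentiles of 63.0 and 81.4, and the other was at the promoters of CFL1 and MUS81, 43.2 kb downstream, with 14.4 and 31.1. As many ATRA-only regions or more were found at 14.5% of genes. At the CFL1 promoter, 42.1 kb downstream, a region of all 4 lists stood at 72.9, 66.7, 64.0 and 26.9. Another of all 4 lists, 40.8 kb downstream at the promoters of CFL1 and MUS81, stood at 57.6, 34.7, 51.1 and 68.4. The best-scored distal region, at the promoters of DRAP1 and C11orf68, stood at 90.3, 83.1, 86.0 and 50.1 and did not separate the groups.

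FOSL2 (FRA2), the other late Fos gene, had 11 peaks in every library. The promoter peak stood at 75.2, 58.0, 77.9 and 39.5, and both orders occurred between the groups. Its strongest distal region, 26.0 kb upstream, was a little lower after ATRA, at 87.3 and 90.9 against 92.4 and 97.4. A control-only region 44.8 kb downstream (chr2:28660439-28660686) had percentiles of 37.1 and 45.1. Of 7 regions in all lists, 3 ranked higher in both ATRA lists and 1 lower.

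Among the Jun genes, JUN, the founding Jun gene, whose protein is a substrate of the stress-activated JNK kinases, had the strongest promoter of the family. The peak at its TSS (chr1:59248755-59250374) stood at 98.0 and 95.8 in the ATRA lists and 98.5 in each control, so all 4 were in the top 5% of their lists. The ATRA values were the lower ones, with a mean difference of -1.55 points (-2.64 when ATRA replicate 1 was left out, -0.470 when ATRA replicate 2 was). Downstream of the gene, the intergenic region printed above, 10.5 kb away (chr1:59239037-59239405), was in the control lists only, at 37.9 and 77.7. A stronger region 28.7 kb downstream (chr1:59220439-59221537), picked out after its values were seen, stood at 89.4 and 90.6 in the controls, where it was 999 and 875 bp wide. It was not called in ATRA replicate 1 and stood at 41.6 with a width of 433 bp in ATRA replicate 2. The remaining distal region of all 4 lists, 32.4 kb upstream, stood at 62.9, 65.6, 73.5 and 49.7, with the groups overlapping.

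JUNB, a Jun protein that can oppose JUN and is known as a brake on myeloid proliferation, differed most by presence. It had 6 and 7 peaks in the ATRA libraries and 3 and 2 in the controls, with means of 6.50 ± 0.707 and 2.50 ± 0.707 (SD, n = 2 each). Of its 7 regions 3 were ATRA-only, and as many or more were found at 4.53% of genes. The region over the TSS (chr19:12901930-12902754) was in the ATRA lists at 39.5 and 30.1, 768 and 542 bp wide, and in neither control list. The other 2 ranked far lower in ATRA replicate 1 than in replicate 2, an intergenic region 30.7 kb upstream at 5.35 and 70.1 and an exon of HOOK2 25.2 kb upstream at 30.3 and 78.4. A stronger region 1.3 kb upstream of the TSS (chr19:12900595-12901422) was in every list, at 92.1 and 85.4 after ATRA and 56.4 and 63.1 in the controls. Its width was 742 and 806 bp against 549 and 584 bp, and it reached the promoter window, which starts 1 kb upstream, in the ATRA lists only. The HOOK2 promoter 15.9 kb upstream, the best-scored distal region among those of all 4 lists, also ranked higher in both ATRA lists, at 83.7 and 81.0 against 57.6 and 31.1. At JUNB both regions of all 4 lists were thus higher after ATRA, by 29.0 and 38.0 points.

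JUND, the Jun gene that is expressed most constantly across cell states, had 9 and 8 peaks in the ATRA libraries and 7 in each control, a difference that was gone with lists of equal length. It had no ATRA-only and no control-only region. The promoter region (chr19:18391860-18393189) stood at 85.1, 45.3, 74.0 and 31.7, with both replicate 1 libraries above both replicate 2 libraries, and its width was 1099 and 1062 bp after ATRA and 517 and 344 bp in the controls. Of 5 regions in all lists 3 ranked higher in both ATRA lists and none lower. The largest difference was 11.0 kb upstream, at 62.6 and 88.4 against 25.0 and 29.5. The best-scored distal region, the promoter of LSM4 41.6 kb upstream, stood at 93.0, 92.2, 86.2 and 62.7.

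Of the remaining genes, BATF, best known from T and B cells and dendritic cells, had a promoter peak in the control lists only. The region just downstream of its TSS (chr14:75988840-75989124) stood at the low percentiles of 12.7 and 3.00, near the bottom of both lists. The gene had 1 and 5 peaks in the ATRA libraries and 4 in each control. Its 1 region of all lists, in an intron 20.5 kb downstream, stood at 44.4, 55.8, 50.9 and 7.59, without a separation of the groups.

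ATF3, a stress-induced repressor of inflammatory genes, was the member whose regions most often ranked lower after ATRA. The promoter peak (chr1:212781630-212782643) stood at 75.5 and 88.7 in the ATRA lists and 93.9 and 98.4 in the controls, a mean difference of -14.0 points. Leaving out ATRA replicate 1 made it -7.39, and leaving out ATRA replicate 2 made it -20.6. Regions 49.6 kb upstream, at 81.1 and 78.7 against 90.6 and 84.7, and 27.7 kb downstream, at 83.4 and 90.9 against 93.3 and 96.5, were lower as well. The best-scored distal region, 21.5 kb downstream, at 86.0, 95.1, 94.0 and 99.0, overlapped between the groups. A control-only region in an ATF3 intron, 41.5 kb upstream of the main TSS (chr1:212740527-212740744, printed above), was weak, at 6.70 and 4.51. The number of peaks was 6 and 7 against 7 and 8. Among 8426 genes outside the windows with a promoter peak in all lists, those closest to ATF3 in all 4 percentiles were TCEA1, MAP3K21 and DOCK2, with largest differences of 1.93, 2.80 and 3.05 points in any library.

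**Figure D3:**
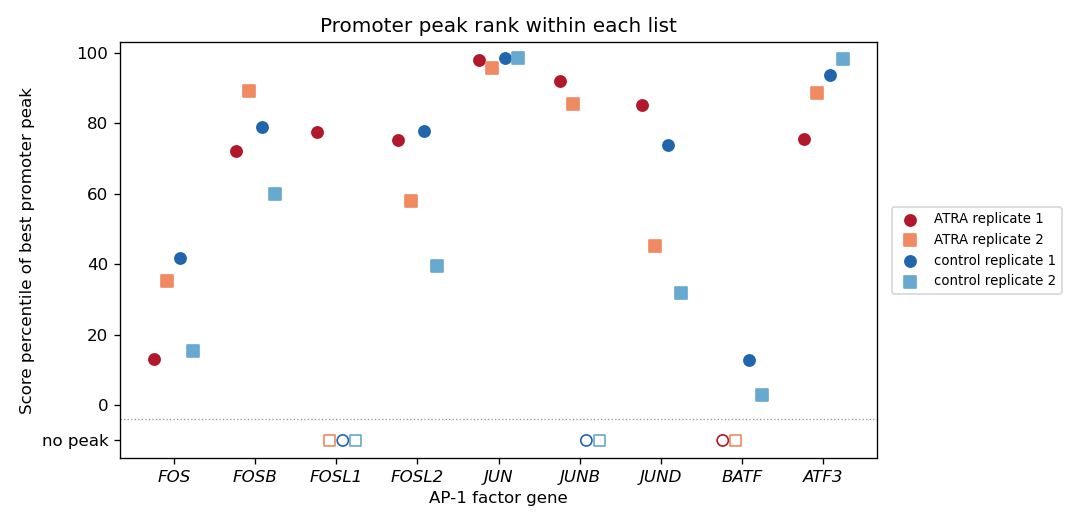
Score percentile (y axis) of the best promoter peak of each AP-1 factor gene (x axis) in each library, with open symbols at the bottom where the promoter window held no peak. JUN stays above 95 in every library, ATF3 is lower in both ATRA libraries, and the promoter windows of JUNB and BATF held a peak in 1 group only.

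Across the family, 6 of 9 genes had a promoter peak in all 4 lists, compared with 41.9% of all protein-coding genes. At FOSB that peak lay downstream of the main TSS, and at FOS the peak of control replicate 2 was in another region than the peaks of the other libraries. None of the 6 was higher in both ATRA lists, beside 38.6% of 8446 genes, and 2 (JUN and ATF3) were lower, beside 6.87%. JUNB was not among the 6, because its region 1.3 kb upstream reached the promoter window in the ATRA lists only. That region was in all 4 lists and ranked higher in both ATRA lists, at 92.1 and 85.4 against 56.4 and 63.1. The median percentile of the 6 promoters was 75.3 and 73.3 in the ATRA lists and 78.5 and 49.7 in the controls. The means of 74.3 ± 1.41 and 64.1 ± 20.3 (SD, n = 2 each) differed by 10.3 points, less than the spread between the control libraries (two-sided exact permutation p = 1). Leaving out control replicate 2, the library with the low value, turned the difference to -4.12.

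Regions were compared next, promoters and distal ones together. Of the 38 regions of all 4 lists, 18 (47.4%) ranked higher in both ATRA lists, beside 29.2% of 23654 such regions in the genome, and 6 (15.8%) ranked lower, beside 12.8%. The median difference between the groups was 13.7 points (quartiles 1.81 to 28.0), compared with 2.83 (-4.52 to 14.4) in the genome. By library, the median percentile of the 38 regions was 82.6 and 82.5 in the ATRA lists and 72.0 and 57.0 in the controls, where all such regions had 68.9, 79.2, 68.2 and 70.5. Control replicate 2 thus ranked the AP-1 regions low, and the part of that library in these counts was not tested. The 18 higher regions were at FOSB (6), FOSL2 and JUND (3 each), FOS, FOSL1 and JUNB (2 each), whereas the 6 lower ones were at ATF3 (3), FOSB, FOSL2 and JUN (1 each). Among the higher regions, only that 1.3 kb upstream of JUNB was at the promoter of a member, and none was inside a member gene. All those at FOSB and FOSL1 lay at promoters of other genes or inside them. The rest were intergenic or at the promoters of HOOK2 and LSM4.

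**Figure D4:**
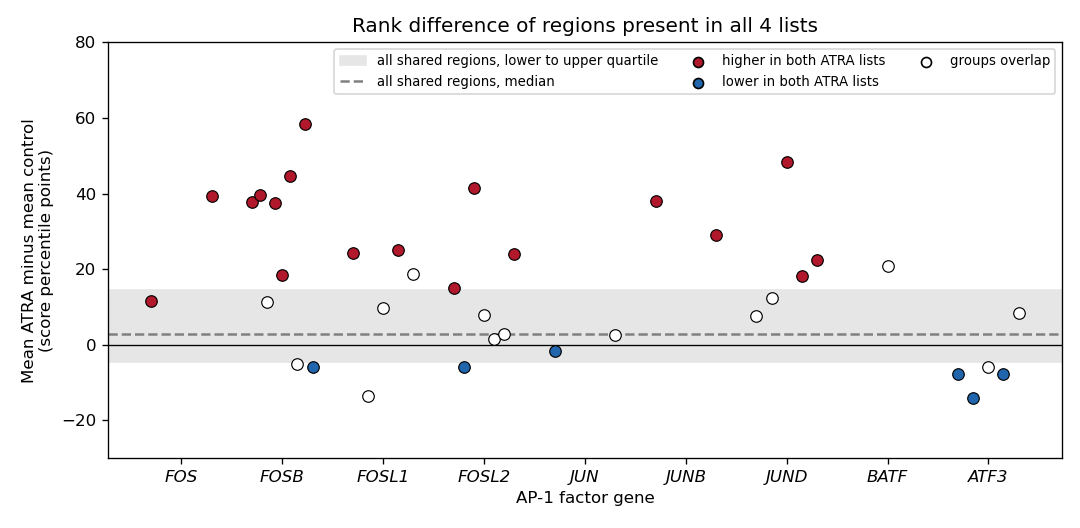
Difference in score percentile, mean ATRA minus mean control (y axis), of each region present in all 4 lists, by AP-1 factor gene (x axis). Filled points are regions whose groups do not overlap, the dashed line is the genome median of 2.83 points and the band runs from the lower to the upper quartile of all such regions. FOSB reaches 58.5 and JUND 48.2 points, both regions of JUNB and both of FOS that are in all lists are above 0, and 3 of the 5 regions of ATF3 lie below 0 with both ATRA values under both control values.

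The regions at the AP-1 genes also differed from the rest in what they lay on. Of the 92 regions, 13 were at the promoter of a member, 19 at the promoter of another gene, 19 in introns, 5 in exons and 36 between genes. Their median content of G and C in the central 200 bp was 59.5%, compared with 47.5% over all regions. Among the regions of all 4 lists with at least 60% G and C, a limit set after the data were seen, 9 of 21 AP-1 regions were higher in both ATRA lists, beside 36.1% in the genome, with a median difference of 12.3 points against 3.80.

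Motifs were searched as fixed letters on both strands in the same 200 bp. The AP-1 element (TGAGTCA or its complement TGACTCA), through which Fos and Jun proteins can act on their own genes, was present in 8 of the 92 regions (8.70%), compared with 5.72% of all regions. The 8 regions were at JUND (4), FOSB (2) and ATF3 (2). None was among the 38 regions of all 4 lists, where the genome had 4.81%. A count of 0 there allows a share of up to 7.89% if the regions are independent, which was not tested. Near matches, and matches outside the central 200 bp, were not counted. The CRE was found in 1 region, that 49.6 kb upstream of ATF3 (genome 0.427%). The CRE printed for the JUND promoter lay in a merged region of all 4 lists, but outside the central 200 bp that were searched. The CArG box was found in 3 regions, at FOS, FOSL1 and FOSL2 (3.26%, genome 1.22%). The retinoic acid receptor repeat DR5 was in none of the 92 regions (genome 0.0974%). At so low a share 92 regions are too few to show a deficit.

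Motifs of the GATA, CEBP, PU.1 and RUNX factors were less frequent than in the genome. The GATA factor motif, searched as AGATAA and in its other form as TGATAA, was in 6.52% of the AP-1 regions against 18.8%. CEBP, searched as TTGCNNAA, was in 5.43% against 12.3%. PU.1, searched as GAGGAAGT, was in 4.35% against 8.94%. The RUNX letters AACCACA were in 3.26% against 8.55%. The AP-1 regions held more G and C than the rest (above), and the part of base composition in these shares was not tested. In the 250 bases upstream of the TSS, JUND had the CRE (200 to 193 bases upstream), JUN a GATA match (30 to 25 bases upstream) and BATF the GATA and RUNX matches shown, while the other 6 genes had no exact match to any of the 8 motifs. Near matches were not counted, and the JUN and ATF3 promoters hold near matches to the CRE. Of 19881 promoters of this length, 2.40% held the CRE, 3.05% the AP-1 element, 10.3% a GATA match, 2.81% a RUNX match, 7.11% a CEBP match, 2.09% a PU.1 match, 1.12% a CArG box and 0.0352% a DR5.

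Related genes were counted in the same way, and the shares below stand beside 8.93% ATRA-only and 3.37% control-only among all regions. The 16 other bZIP genes, which include partners of the Jun proteins, had 163 regions, of which 16 (9.82%) were ATRA-only and 6 (3.68%) control-only. BACH1, a bZIP repressor of heme and oxidative stress genes, had 5 ATRA-only regions, and its relative BACH2, a repressor in lymphoid cells, had 2 ATRA-only and 3 control-only. The 14 immediate early genes outside AP-1 had 13 ATRA-only (11.4%) and 4 control-only (3.51%) of 114 regions. Among them, IER3 had 2 ATRA-only and 1 control-only, and NR4A2, an orphan nuclear receptor, had 2 ATRA-only. For the 12 kinases and factors that act upstream of AP-1, 13 of 85 regions were ATRA-only (15.3%) and 4 control-only (4.71%). MAP3K8, a kinase upstream of ERK in inflammatory signalling, had 5 ATRA-only and 2 control-only regions, and MAPK3, which encodes ERK1, had 3 ATRA-only. The 10 AP-1 target genes had 13 ATRA-only (15.1%) and 1 control-only (1.16%) of 86 regions, and CXCL8, the neutrophil-attracting chemokine, had 3 of them. More peaks in both ATRA lists were found at 5 of the 16 bZIP genes, 6 of the 14 immediate early genes, 5 of the 12 upstream genes and 4 of the 10 targets, beside 22.9% of all genes. Fewer peaks were found at 2 of the bZIP genes and at none of the others, beside 3.03% of all genes. Regions that also lie in the window of an AP-1 gene were not left out of these counts. These lists were not tested against each other.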

How the data were processed

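ATAC-seq peaks of 4 HL-60 libraries were used. Per the labels and methods, the authors removed adapters, mapped the reads with Bowtie (hg19) and ran MACS2 on each library at its defaults. A shift of reads for the Tn5 offset, the handling of duplicates and the tool versions were not given in the sources used here. The deposited score, from 50.0 to 3100, has no stated scale and served only to rank peaks within a list. Longer or deeper libraries can yield more and wider peaks.

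Genes were those of GENCODE 44 on GRCh37. Touching or overlapping peaks were merged, and convincing peaks overlapped by at least 1 bp between replicates. Promoters ran from 1 kb upstream to 100 bp downstream of any TSS of a protein-coding transcript, and the main transcript was the Ensembl canonical one. Distances run to region centres. Group values were compared by a two-sided exact permutation test over the 6 relabellings. Members, gene lists and motifs were chosen with earlier results of these data known. All 9 members are named, with their promoter, group-only and best-scored distal regions, the last by mean percentile among regions of all 4 lists. Alternatives were lists of equal length, the peaks above percentile 50 by score, windows of 10 and 100 kb, other overlaps and promoters, and each library left out. Counting was checked on simulated lists. Python 3.11.15, numpy 2.4.6, pandas 2.3.3, pysam 0.24.0 and matplotlib 3.10.9 were used.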

Additional observations from a re-analysis of the deposited data

How the results depend on the processing

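The 15 ATRA-specific and 7 control-specific convincing peaks at the AP-1 genes again numbered 15 and 7 when 50% of the shorter peak had to overlap. With lists of equal length, the control-specific peaks were 4, the density difference turned to 0.475, and 1 gene had more and 1 had fewer peaks in both ATRA lists. Percentiles were still those of the full lists there. With the peaks above percentile 50 of each list, the control-specific peaks were 2, the density difference was 2.12 and the promoter difference turned to -13.8 points. Within 10 kb there were 4 ATRA-specific and 3 control-specific peaks, and 1 gene had more and 1 fewer. Within 100 kb there were 29 ATRA-specific peaks and the density difference was 0.360. Demanding that neither library of the opposite group had a peak left 6 and 4. The causes were not tested.

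Leaving out each library in turn gave 9 to 32 ATRA-specific and 5 to 16 control-specific peaks, the lowest and highest of which came without control replicate 2 and ATRA replicate 1, and without ATRA replicate 1 and control replicate 2. The density difference was -2.30 at the lowest, without ATRA replicate 1, and 1.70 at the highest, without ATRA replicate 2. Promoter differences lay between -4.12 (without control replicate 2) and 24.6 (without control replicate 1). Genes with more peaks numbered 3 to 5 and genes with fewer 0 to 3. A group left with 1 library has no replicate check.

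With the replicate number as a block, the differences were again -0.302 for density and 10.3 for the promoters (exact permutation p = 1 for both, where 0.5 is the smallest possible), from pairs of 0.203 and -0.808, and of -3.13 and 23.6. Deviations of same-numbered libraries correlated at r = 0.211 over 23654 regions, which are not independent, and 2 pairs do not show a pairing. The unknown depth of the lists limits what can be said of weak peaks, and absence from a list is not absence of open chromatin. Groups of 2 libraries were too small for a search for outlying libraries.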
